A study of Arabidopsis thaliana with 8 samples.

Results

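The leaf transcriptome of dcl1 was compared with that of wild-type Arabidopsis thaliana after the counts of both adapter kinds had been pooled for each RNA sample. Membership followed the labels: every one of the 8 libraries was used, and the library with high definition (HD) adapters and the library with standard Illumina adapters that carry the same genotype and replicate number were summed, which gave 4 RNA samples, 2 of wild type and 2 of dcl1. The plants grew without treatment at 25 °C by day and 18 °C by night under 16 h of light, and leaf messenger RNA was purified on magnetic beads after Tri-reagent extraction. HD adapters carry random bases at the ligated end, and standard adapters do not. The labels name the genotypes wt and dcl1 but no dcl1 allele, accession of wild type or plant age, and nothing says that replicates were separate plants, so the p-values rest on the spread among these 4 samples alone, and that spread may be technical.

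DICER-LIKE 1 (DCL1) is the RNase III enzyme that cuts most plant microRNAs out of their hairpin precursors. MicroRNAs load into ARGONAUTE proteins and lower target messenger RNAs by cleavage and by blocking translation, and many targets are transcription factors that control development, hormone response and nutrient use. Plants with weak dcl1 alleles are known for small stature, altered leaf shape and delayed or abnormal development, and transcripts that are no microRNA targets can differ in such leaves too.

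Summed counts per RNA sample ran from 43271380 to 80898919, of which ribosomal RNA loci took 20.8% to 27.7%. The DCL1 transcript itself (chromosome 1, 23121 to 31227, TAIR10.1) stood at 20.8 and 20.7 CPM in wild type and 22.9 and 22.9 CPM in dcl1. It did not pass the test (log2 fold change 0.14 with SE 0.17, adjusted p = 0.701), so the labels could not be checked by this gene. DCL1 is itself among the known microRNA targets. Levels are given as CPM, counts scaled to a common library size, and a log2 fold change is that of dcl1 over wild type from edgeR's quasi-likelihood test, with its standard error (SE) and a p-value adjusted over all loci. Leaf markers were abundant in every sample, with the 5 mesophyll markers summing to between 46770 and 59566 CPM. Flower markers summed to at most 3.22, seed markers to at most 0.200 and shoot meristem markers to at most 0.378 CPM. Root markers summed to 19.98 and 19.85 CPM in wild type and to 18.8 and 15.9 CPM in dcl1. Among them GL2, which is also in the trichome list, stood at 12.96 and 12.9 CPM in wild type and 13.1 and 8.37 CPM in dcl1. LFY, AP1, AP3, AG, SEP3, STM, WUS and the 8 seed markers were below 0.5 CPM in all samples. The flower markers PI, SEP1 and SEP2 were not, at 0.591, 1.68 and 0.662 CPM in wild-type replicate 1. SEP1 also stood at 0.666 CPM in wild-type replicate 2 and 0.739 CPM in dcl1 replicate 1. The 8 guard cell and stomatal lineage markers summed to 31.6 and 30.2 CPM in wild type and to 17.6 and 16.98 CPM in dcl1, and 2 of the 8 fell (4.55% of all loci did), MYB60 (log2 fold change -1.02, adjusted p = 0.0382) and SPCH (from 0.970 and 0.992 to 0.0308 and 0.0411 CPM). The epidermis, phloem, xylem, trichome and dividing-cell lists had 0 members called by edgeR, and SULTR2;2 was the 1 called bundle sheath marker. In bulk leaf, fewer cells of a type and less RNA per cell cannot be told apart, and the part of guard cell markers in the results below was not tested.

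Of 19711 loci tested with edgeR, 1744 (8.85%) were called at an adjusted p under 0.05, 848 (4.3%) higher and 896 (4.55%) lower in dcl1. Every count of called genes below is to be set against these shares, since a few calls fall in most lists. Most families below were picked from 85 searched because their share called in 1 direction was high. Known microRNA targets made up a small part of the calls. Of 82 tested, 14 rose (17.1%, against 4.3% of all loci) and 4 fell (4.88%, against 4.55%). That left 1726 calls among other loci, 834 higher and 892 lower. The median absolute log2 fold change of called loci was 0.96, and 817 of the called loci differed by 1 or more on the log2 scale, 336 higher and 481 lower. The groups did not overlap at 51.9% of all loci tested, so with 2 samples a group a lack of overlap was common. Of 1719 called loci that could be fitted with either adapter alone, 1717 had the same sign in the HD libraries and in the standard libraries. The loci were called on the sums of these same libraries, so equal signs were largely built in and are no independent check. Within 1 adapter fewer loci passed, 747 with HD and 809 with standard adapters, and 434 passed in both with the same direction.

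**Figure D1:**
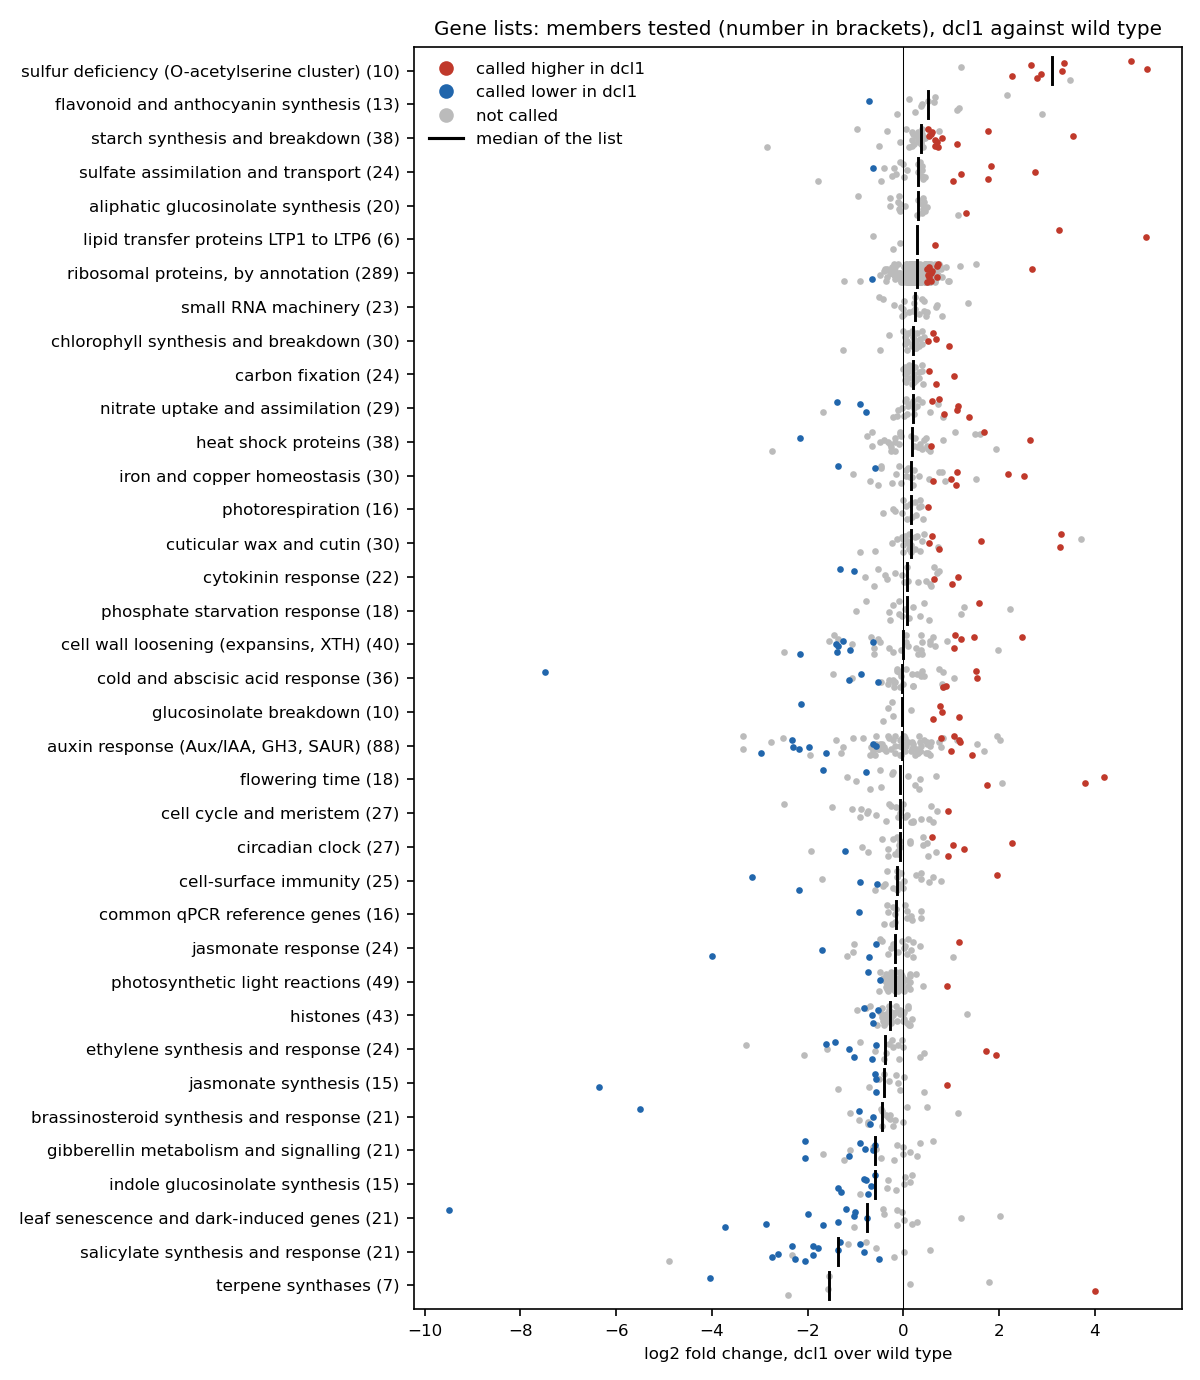
Log2 fold change (dcl1 over wild type, x axis) of every tested member of 37 gene lists (rows, with the number tested in brackets); each point is 1 gene, red or blue where it was called, and the black tick is the list's median. The sulfur-deficiency list sits farthest to the right with a median of 3.09, and the salicylate list has 13 called members, all lower in dcl1.

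Among the gene lists the highest median belonged to sulfur deficiency. Plants short of sulfur accumulate O-acetylserine, the acceptor for sulfide, and a small cluster of genes rises with it. Of the 10 listed genes of this O-acetylserine cluster, 8 rose, 0 fell and 2 did not pass, with a median log2 fold change of 3.09 against 0.01 over all loci. SDI1, a repressor of glucosinolate synthesis under sulfur deficiency, was 34.1-fold higher, and APR3, a reductase that commits sulfate to assimilation, was 7.32-fold higher. All 8 calls held when any 1 of the 4 RNA samples was left out, and 8 genes rose with either adapter alone.

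SDI1 (AT5G48850, chromosome 5, 19805437 to 19807853) stood at 0.946 and 0.496 CPM in wild type and 17.1 and 29.8 CPM in dcl1 (log2 fold change 5.09 with SE 0.35, adjusted p = 1.18e-07). LSU1, a small protein of the low-sulfur response, stood at 0.686 and 0.484 CPM in wild type and 14.0 and 16.96 CPM in dcl1 (log2 fold change 4.76 with SE 0.32, adjusted p = 1.18e-07). Its relative LSU2 stood at 4.45 and 2.37 CPM in wild type and 21.5 and 24.9 CPM in dcl1 (log2 fold change 2.79 with SE 0.27, adjusted p = 3.73e-06). For SDI1, LSU1 and LSU2 both dcl1 samples lay well above both wild-type samples. GGCT2;1, a gamma-glutamyl cyclotransferase that breaks down glutathione, went from 0.970 and 1.84 to 13.4 and 15.2 CPM (log2 fold change 3.32 with SE 0.32, adjusted p = 3.73e-06). SULTR4;2, an exporter of sulfate from the vacuole, went from 1.54 and 1.86 to 16.3 and 18.8 CPM (log2 fold change 3.36 with SE 0.27, adjusted p = 4.1e-07). SHM7, a serine hydroxymethyltransferase, was already present in wild type at 15.7 and 13.7 CPM and reached 61.2 and 79.8 CPM in dcl1 (log2 fold change 2.26 with SE 0.18, adjusted p = 3.72e-07). None of these groups overlapped. The eighth gene that rose, AT1G04770, named after its values were seen, went from 4.59 and 2.203 to 24.4 and 17.8 CPM (log2 fold change 2.66 with SE 0.30, adjusted p = 2.03e-05). The pair that did not pass, the beta-glucosidase genes BGLU28 and BGLU30 (named after their values were seen), had few counts, with BGLU28 at 0.284 and 0.0121 CPM in wild type and 2.2003 and 0.884 CPM in dcl1 and BGLU30 at 0 and 0.278 CPM in wild type and 0.0308 and 0.658 CPM in dcl1.

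The 3 genes for adenosine phosphosulfate reductase all rose. APR3 (chromosome 4, 11657008 to 11659167) stood at 9.98 and 9.08 CPM in wild type and 64.9 and 74.4 CPM in dcl1 (log2 fold change 2.87 with SE 0.17, adjusted p = 2.29e-08), and APR1 stood at 15.3 and 8.81 CPM in wild type and 67.2 and 95.0 CPM in dcl1 (log2 fold change 2.76 with SE 0.23, adjusted p = 7.71e-07). APR2 stood at 27.6 and 17.3 CPM in wild type and 55.3 and 97.7 CPM in dcl1 (log2 fold change 1.77 with SE 0.24, adjusted p = 0.000147), although 48.6% of the 50-base stretches of its exons also occur in other loci, most of them in an overlapping locus on the other strand. Within the dcl1 group, replicate 2 was the higher one for all 3. The strand of counting is not given in the sources used here, so reads of such overlaps cannot be assigned.

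Of 24 tested genes of sulfate assimilation and transport 5 rose and 1 fell. SULTR1;2, the main sulfate uptake transporter of roots, went from 3.38 and 4.74 to 14.4 and 14.8 CPM (log2 fold change 1.84 with SE 0.26, adjusted p = 0.000185), and SULTR4;1, a second vacuolar exporter, from 10.997 and 9.80 to 26.4 and 21.2 CPM (log2 fold change 1.196 with SE 0.20, adjusted p = 0.000828). Both levels in dcl1 exceeded both in wild type. SULTR2;2, a transporter of vascular tissue with 32.3% of its stretches in an antisense locus, rose by 1.03 on the log2 scale and lost its call in the standard libraries alone (log2 0.88). The one that fell, the serine acetyltransferase gene SERAT2;2 (log2 -0.63), lost its call without wild-type replicate 2 (log2 -0.51), without dcl1 replicate 1 (log2 -0.63) or 2 (log2 -0.63), and with HD (log2 -0.72) or standard libraries alone (log2 -0.49). Among the 8 tested sulfate transporters, AST91 was the member that fell, from 24.7 and 32.0 to 9.39 and 10.05 CPM (log2 fold change -1.55 with SE 0.19, adjusted p = 6.11e-05).

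The 250 bases before the annotated start were searched on both strands for GAGAC, the core of the sulfur-responsive element described in Arabidopsis. It occurred before 4 of the 10 cluster genes (40%), against 25.8% of 27443 protein-coding genes. Other motifs were searched too, and GAGAC did not stand out among them. TGACG occurred before 40% (against 18.6%), TTGACT before 30% (19.1%), CCGAC before 20% (12%) and TATAAA before 50% (47.3%). TTGACC was before 10% (12.2%), and CACGTG (6.49% of all) and AAAATATCT (2.36%) before none. The windows of the 4 genes with a GAGAC match are shown 5′ to 3′ on the coding strand, from the reference genome TAIR10.1. GAGAC or its reverse complement GTCTC is in capitals. The SDI1 window is chr5:19807854-19808103 (minus strand), that of GGCT2;1 chr5:9164885-9165134 (minus), that of BGLU28 chr2:18346056-18346305 (plus) and that of BGLU30 chr3:22216290-22216539 (plus).
SDI1: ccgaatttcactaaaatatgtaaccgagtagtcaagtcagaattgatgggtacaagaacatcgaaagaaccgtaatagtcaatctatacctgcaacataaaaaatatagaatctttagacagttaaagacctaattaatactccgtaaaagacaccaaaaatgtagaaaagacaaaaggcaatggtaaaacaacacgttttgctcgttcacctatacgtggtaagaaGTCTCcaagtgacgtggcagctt
GGCT2;1: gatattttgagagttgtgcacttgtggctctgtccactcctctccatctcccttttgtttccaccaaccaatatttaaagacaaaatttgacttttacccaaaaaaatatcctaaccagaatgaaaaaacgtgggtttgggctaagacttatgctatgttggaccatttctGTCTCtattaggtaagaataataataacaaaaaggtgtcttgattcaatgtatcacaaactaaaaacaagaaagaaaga
BGLU28: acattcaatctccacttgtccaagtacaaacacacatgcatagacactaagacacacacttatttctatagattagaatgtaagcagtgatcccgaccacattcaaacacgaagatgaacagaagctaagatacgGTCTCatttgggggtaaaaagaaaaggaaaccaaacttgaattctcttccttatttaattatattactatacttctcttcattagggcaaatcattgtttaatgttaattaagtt
BGLU30: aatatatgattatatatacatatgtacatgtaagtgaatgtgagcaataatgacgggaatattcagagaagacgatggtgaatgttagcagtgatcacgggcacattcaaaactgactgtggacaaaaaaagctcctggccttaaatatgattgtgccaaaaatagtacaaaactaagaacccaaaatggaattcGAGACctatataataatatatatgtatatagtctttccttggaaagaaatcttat
SDI1 and GGCT2;1 rose and the other pair did not pass. The windows of the other 6 cluster genes, APR3, LSU1, LSU2, SHM7, SULTR4;2 and AT1G04770, all of which rose, held no GAGAC match. A match is a description of the letters, not of a bound site.

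Starch genes rose in dcl1. Leaves store starch by day and break it down at night through glucan phosphorylation and beta-amylases. Of 38 tested starch genes 12 rose and 0 fell, with a median log2 fold change of 0.38, and 33 of the 38 fold changes were positive. SEX1, the glucan water dikinase that opens the granule surface, stood at 471 and 458 CPM in wild type and 677 and 738 CPM in dcl1 (log2 fold change 0.61 with SE 0.13, adjusted p = 0.00755), and PWD, the phosphoglucan water dikinase that acts after it, stood at 185 and 196 CPM in wild type and 301 and 303 CPM in dcl1 (log2 fold change 0.66 with SE 0.14, adjusted p = 0.00494). The chloroplast beta-amylase gene BAM3 stood at 211 and 218 CPM in wild type and 355 and 390.5 CPM in dcl1 (log2 fold change 0.80 with SE 0.14, adjusted p = 0.00123), with 24.6% of its stretches in an antisense locus. These 3 were abundant, with log2 fold changes under 1 and no overlap between the groups, and the call of SEX1 ended without dcl1 replicate 2 (log2 0.54).

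Some other starch genes differed by more. PHS2, a cytosolic glucan phosphorylase, stood at 285 and 193 CPM in wild type and 525 and 512 CPM in dcl1 (log2 fold change 1.12 with SE 0.17, adjusted p = 0.000347). BAM5 (chromosome 4, 8666334 to 8669526), a beta-amylase known from the phloem, stood at 1.87 and 2.47 CPM in wild type and 30.2 and 21.1 CPM in dcl1, which is 11.7-fold higher (log2 fold change 3.55 with SE 0.25, adjusted p = 1.81e-07). BAM6, a further beta-amylase gene, went from 4.23 and 2.67 to 11.4 and 11.9 CPM (log2 fold change 1.76 with SE 0.29, adjusted p = 0.000845). These 3 groups did not overlap either. Fewer starch genes rose when wild-type replicate 2, dcl1 replicate 1 or dcl1 replicate 2 was left out. Phloem companion cell markers summed to 255 and 315 CPM in wild type and to 289 and 315 CPM in dcl1.

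**Figure D2:**
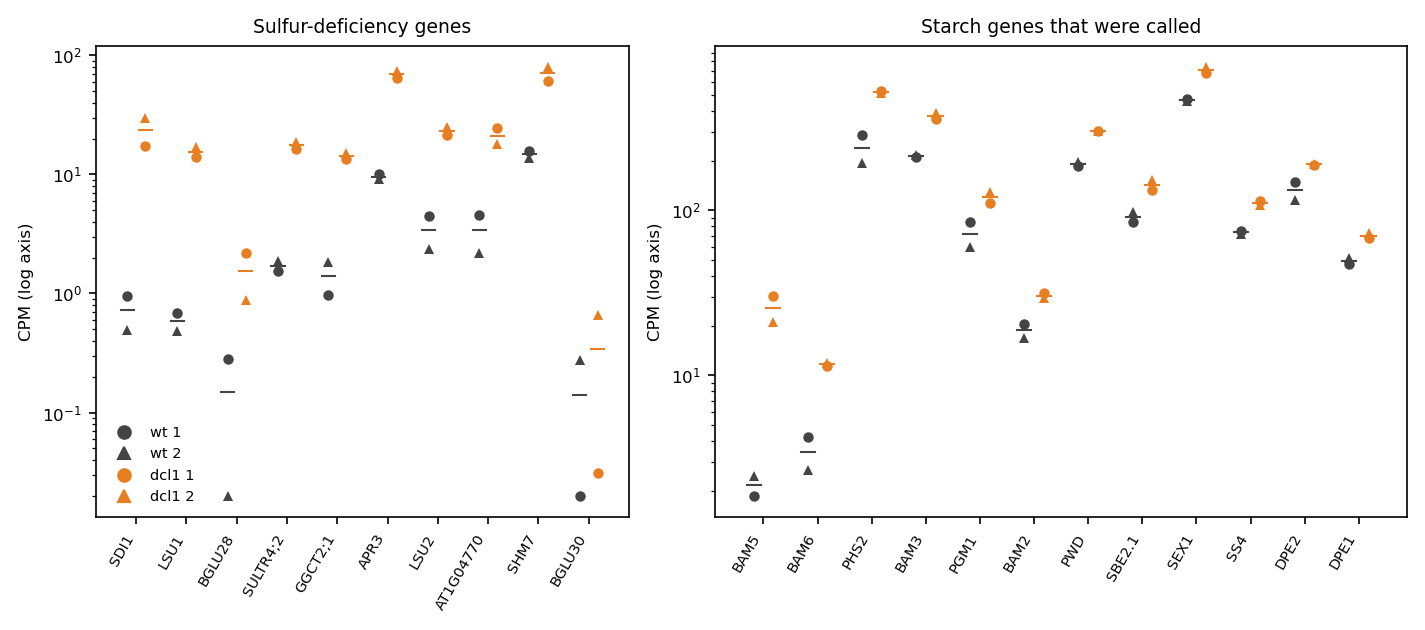
CPM in each RNA sample (log axis) for the 10 sulfur-deficiency genes (left) and the 12 starch genes that rose (right); circles are replicate 1 and triangles replicate 2, grey for wild type and orange for dcl1, bars are group means, and values below 0.02 CPM are drawn at 0.02. SDI1 lies below 1 CPM in both wild-type samples and at 17.1 and 29.8 CPM in dcl1, while SEX1 moves from 471 and 458 to 677 and 738 CPM.

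Genes of the leaf surface rose as well. The cuticle is made of cutin and of waxes built from very long chain fatty acids, and lipid transfer proteins are secreted by the epidermis. Of 30 tested wax and cutin genes 6 rose and 0 fell. CER4, the fatty acyl-CoA reductase that makes primary alcohols, stood at 5.06 and 1.33 CPM in wild type and 27.0 and 32.4 CPM in dcl1 (log2 fold change 3.27 with SE 0.39, adjusted p = 3.54e-05), and WSD1, the synthase that joins alcohols to acids as wax esters, stood at 1.18 and 0.508 CPM in wild type and 8.79 and 7.30 CPM in dcl1 (log2 fold change 3.29 with SE 0.43, adjusted p = 0.000101). CER1, which acts in alkane formation, stood at 71.4 and 39.4 CPM in wild type and 183 and 156 CPM in dcl1 (log2 fold change 1.62 with SE 0.21, adjusted p = 0.000103). Wild-type replicate 2 was the lowest sample for all 3. The smaller rises of KCS1 (log2 0.59), MYB96 (log2 0.74) and CER3 (log2 0.53) lost their calls without that sample (log2 0.38, log2 0.47 and log2 0.41) and with HD (log2 0.56, log2 0.89 and log2 0.50) or standard libraries alone (log2 0.64, log2 0.73 and log2 0.54). KCS1 and CER3 lost them also without dcl1 replicate 2 (log2 0.45 and log2 0.41), and the list count without wild-type replicate 2 was 3. Of 19 tested 3-ketoacyl-CoA synthases, which elongate fatty acids for wax, 3 rose (15.8%) and 1 fell. KCS8 stood at 75.3 and 60.6 CPM in wild type and 102 and 123.1 CPM in dcl1 (log2 fold change 0.73 with SE 0.16, adjusted p = 0.00728), and KCS19 went the other way, from 7.40 and 6.08 to 1.83 and 2.01 CPM (log2 fold change -1.81 with SE 0.36, adjusted p = 0.00339). The call of KCS8 ended without dcl1 replicate 2 (log2 0.59) and that of KCS19 with HD (log2 -2.12) or standard libraries alone (log2 -2.07). The number of synthases that rose was 1 without wild-type replicate 2 and 0 without dcl1 replicate 2, where 2 fell.

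Among LTP1 to LTP6, 3 of 6 rose. LTP3 stood at 2.79 and 6.17 CPM in wild type and 54.2 and 33.5 CPM in dcl1 (log2 fold change 3.26 with SE 0.30, adjusted p = 1.93e-06). LTP4, its neighbour on chromosome 5, was close to undetected in wild type at 0.166 and 0.182 CPM and reached 8.31 and 3.60 CPM. LTP1 rose by 0.66 on the log2 scale, and its call ended without wild-type replicate 2 (log2 0.38) or dcl1 replicate 1 (log2 0.47) and with HD (log2 0.62) or standard libraries alone (log2 0.62). In the wider family of lipid transfer and related proteins 6 of 39 tested members rose (15.4%) and 8 fell (20.5%). AT1G48750 went from 1.18 and 2.15 to 17.8 and 20.9 CPM (log2 fold change 3.501 with SE 0.29, adjusted p = 6.98e-07), but 100% of its stretches lie in an overlapping gene on the other strand, delta-ADR, which rose by 0.62 on the log2 scale. AT1G62510 went the other way, from 20.5 and 28.3 to 3.02 and 2.302 CPM (log2 fold change -3.19 with SE 0.25, adjusted p = 3.72e-07), and shares 41% of its stretches with an antisense locus. The 4 epidermis markers summed to 360 and 322 CPM in wild type and to 324 and 355 CPM in dcl1.

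Among the lower transcripts were many defence genes. Salicylate is the hormone of defence against biotrophic pathogens, and its accumulation switches on pathogenesis-related (PR) genes. Of 21 tested genes of salicylate synthesis and response 13 fell and 0 rose, with a median log2 fold change of -1.37. SARD1, a transcription factor that drives salicylate synthesis, stood at 24.1 and 16.8 CPM in wild type and 3.85 and 5.94 CPM in dcl1 (log2 fold change -2.06 with SE 0.26, adjusted p = 6.33e-05). DMR6, an oxygenase that inactivates salicylate, stood at 83.7 and 51.0 CPM in wild type and 12.4 and 15.7 CPM in dcl1 (log2 fold change -2.26 with SE 0.21, adjusted p = 2.83e-06), and WRKY54, a transcription factor of this response, stood at 15.2 and 10.5 CPM in wild type and 4.46 and 2.38 CPM in dcl1 (log2 fold change -1.90 with SE 0.32, adjusted p = 0.000938). Wild-type replicate 1 exceeded replicate 2 for each of them, and both exceeded dcl1.

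The secreted PR proteins fell as well. PR1 stood at 126 and 51.1 CPM in wild type and 16.6 and 11.9 CPM in dcl1 (log2 fold change -2.63 with SE 0.30, adjusted p = 1.86e-05), the glucanase PR2 at 214 and 125 CPM in wild type and 50.8 and 40.3 CPM in dcl1 (log2 fold change -1.89 with SE 0.21, adjusted p = 1.62e-05), and PR5, a thaumatin-like protein, at 159.9 and 78.7 CPM in wild type and 33.7 and 35.5 CPM in dcl1 (log2 fold change -1.79 with SE 0.23, adjusted p = 0.000101). Wild-type replicate 1 was the highest sample for all 3. Without it the log2 fold change of PR5 was log2 -1.18 and 9 of the 21 genes fell. With standard libraries alone 8 fell. BG3 (chromosome 3, 21181642 to 21183144), a further glucanase gene, had one of the largest falls, from 25.7 and 19.7 to 1.28 and 2.26 CPM (log2 fold change -3.69 with SE 0.29, adjusted p = 3.72e-07). LURP1, known for its induction by pathogens, went from 103 and 62.7 to 14.8 and 19.9 CPM (log2 fold change -2.26 with SE 0.22, adjusted p = 3.17e-06). It belongs to a family of 13 tested LURP-one-like proteins of which 2 fell, and 1 fell without wild-type replicate 2 or dcl1 replicate 2 (1 rose without wild-type replicate 1).

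PCC1, pathogen and circadian controlled 1, and a pair of genes beside it on chromosome 3 encode small cysteine-rich membrane proteins and were among the 12 largest falls. PCC1 stood at 501 and 285 CPM in wild type and 31.6 and 53.8 CPM in dcl1 (log2 fold change -3.20 with SE 0.26, adjusted p = 4.52e-07). AT3G22235 stood at 432 and 251 CPM in wild type and 36.3 and 50.1 CPM in dcl1 (log2 fold change -2.98 with SE 0.22, adjusted p = 2.78e-07), and AT3G22240 stood at 116 and 74.3 CPM in wild type and 13.1 and 12.7 CPM in dcl1 (log2 fold change -2.88 with SE 0.20, adjusted p = 1.18e-07). They share 27.8%, 67.5% and 37.8% of their stretches with other loci, chiefly with each other, so their counts are not fully separate. AT5G42530, annotated as an uncharacterized protein, fell from 419.9 and 303 to 51.1 and 58.6 CPM (log2 fold change -2.72 with SE 0.17, adjusted p = 5.85e-08).

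Members of 3 families of cell-surface receptors fell. Receptor-like proteins carry leucine-rich repeats outside the cell but no kinase, and act with the adaptor kinase SOBIR1. Of 45 tested receptor-like proteins 12 fell and 0 rose (26.7% lower, against 4.55% of all loci), with a median log2 fold change of -0.88, and 1 rose without wild-type replicate 2. RLP23, the receptor for a peptide of necrosis-inducing proteins, stood at 39.97 and 36.8 CPM in wild type and 9.56 and 13.3 CPM in dcl1 (log2 fold change -1.75 with SE 0.19, adjusted p = 1.2e-05). RLP34 stood at 39.8 and 34.8 CPM in wild type and 10.6 and 7.17 CPM in dcl1 (log2 fold change -2.07 with SE 0.20, adjusted p = 3.73e-06), and RLP41 at 29.7 and 23.7 CPM in wild type and 6.12 and 4.38 CPM in dcl1 (log2 fold change -2.34 with SE 0.22, adjusted p = 3.05e-06). RLP34 and RLP41 share 19.2% and 19.4% of their stretches with other loci, mostly related receptors. RLP39 and RLP43 fell by 1.97 and 2.89 on the log2 scale. SOBIR1 itself went from 231 and 187 to 93.9 and 128 CPM (log2 fold change -0.91 with SE 0.17, adjusted p = 0.0021), with 28% of its stretches shared, mostly with RAP on the other strand, whose log2 fold change was -0.21.

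Wall-associated kinases bind pectin in the cell wall. Of 11 tested, 4 fell (36.4%) and 1 rose. WAK1 stood at 205 and 176 CPM in wild type and 44.4 and 55.0 CPM in dcl1 (log2 fold change -1.94 with SE 0.16, adjusted p = 6.55e-07), and WAK4, in the same cluster on chromosome 1, stood at 25.7 and 21.4 CPM in wild type and 3.59 and 5.02 CPM in dcl1 (log2 fold change -2.45 with SE 0.23, adjusted p = 2.89e-06). Both dcl1 samples were below both wild-type samples. WAK2 and WAK3 fell by 0.88 and 1.67 on the log2 scale, with 31.3% of the stretches of WAK2 shared, mostly on the other strand, and WAKL2 rose by 1.42 on the log2 scale from 3.26 and 4.94 to 10.3 and 11.8 CPM, a call that ended in the HD libraries alone (log2 1.499). Of 34 cysteine-rich receptor kinases 8 fell (23.5%) and 3 rose. CRK4 stood at 84.9 and 89.0 CPM in wild type and 25.9 and 27.4 CPM in dcl1 (log2 fold change -1.71 with SE 0.15, adjusted p = 1.43e-06), and CRK6 and CRK7, which lie side by side, fell by 1.49 and 1.91 on the log2 scale, with 22% of the stretches of CRK6 shared, mostly with CRK8. CRK12 was near 0 in dcl1, at 0.246 and 0.0206 CPM against 3.71 and 3.51 CPM, and its fitted log2 fold change of -4.66 (log2 -7.31 without dcl1 replicate 1) depends on the prior count. CRK18 rose from 31.1 and 22.6 to 46.9 and 50.9 CPM (log2 fold change 0.87 with SE 0.17, adjusted p = 0.00378) and lost its call in the HD libraries alone (log2 0.74). The number of these kinases that rose was 1 without dcl1 replicate 2.

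Glutathione transferases conjugate glutathione to reactive compounds, and 6 of 34 tested fell (17.6%) while 0 rose, although 22 of the 34 fold changes were positive and the median was 0.21. GSTF6 stood at 117 and 125 CPM in wild type and 22.2 and 28.4 CPM in dcl1 (log2 fold change -2.26 with SE 0.17, adjusted p = 1.99e-07), GSTF3 at 83.0 and 70.5 CPM in wild type and 14.8 and 18.6 CPM in dcl1 (log2 fold change -2.200 with SE 0.17, adjusted p = 3.72e-07), and GSTF2 at 301 and 267 CPM in wild type and 50.8 and 66.9 CPM in dcl1 (log2 fold change -2.27 with SE 0.16, adjusted p = 1.94e-07). These 3 were abundant in wild type and did not overlap with dcl1. GSTF7, next to GSTF6, fell by 1.79 on the log2 scale. GSTF2 shares 54.4% of its stretches with the overlapping TOC159 gene on the other strand, whose log2 fold change was 0.65. Without wild-type replicate 1, 4 glutathione transferases rose. Germin-like proteins split, with GLP5 at 37.4 and 35.5 CPM in wild type and 14.9 and 17.7 CPM in dcl1 (log2 fold change -1.16 with SE 0.17, adjusted p = 0.000281) and GER3 at 493 and 453 CPM in wild type and 996 and 1105 CPM in dcl1 (log2 fold change 1.15 with SE 0.14, adjusted p = 2.95e-05). Of 12 tested germin-like genes 3 fell and 1 rose.

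Indole glucosinolates are sulfur-rich defence compounds made from tryptophan. Of 15 tested genes of their synthesis 7 fell and 0 rose, with a median log2 fold change of -0.60. CYP83B1, which commits the aldoxime to glucosinolates, stood at 189.8 and 167 CPM in wild type and 111 and 111 CPM in dcl1 (log2 fold change -0.69 with SE 0.14, adjusted p = 0.00527), and GSTF10, a glutathione transferase, stood at 139.9 and 159.7 CPM in wild type and 81.3 and 89.0 CPM in dcl1 (log2 fold change -0.82 with SE 0.15, adjusted p = 0.00175). CYP79B2, which oxidises tryptophan, stood at 23.3 and 24.7 CPM in wild type and 11.6 and 7.77 CPM in dcl1 (log2 fold change -1.31 with SE 0.21, adjusted p = 0.00073). The groups did not overlap for these genes. In the standard libraries alone the calls of CYP79B2 (log2 -0.64) and CYP83B1 (log2 -0.56) ended. ASA1, an anthranilate synthase upstream of tryptophan, fell by 0.75 on the log2 scale, and its call ended in the HD libraries alone (log2 -0.69). Of 20 tested genes for aliphatic glucosinolates, made from methionine, 1 rose and 0 fell (4 rose without wild-type replicate 1, and 2 without dcl1 replicate 2). Of 10 genes of glucosinolate breakdown 4 rose and 1 fell. NSP5, a nitrile-specifier protein, stood at 15.2 and 17.7 CPM in wild type and 38.6 and 35.5 CPM in dcl1 (log2 fold change 1.17 with SE 0.17, adjusted p = 0.000262). Without wild-type replicate 2 or dcl1 replicate 1 the number that rose was 2, and without wild-type replicate 1 the number that fell was 2.

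Senescence genes fell too. Of 21 tested genes induced in old or darkened leaves 10 fell and 0 rose, with a median log2 fold change of -0.77. SEN1, induced in the dark and with age, stood at 131 and 199 CPM in wild type and 10.4 and 14.6 CPM in dcl1 (log2 fold change -3.73 with SE 0.22, adjusted p = 2.29e-08). SAG21 stood at 45.6 and 61.8 CPM in wild type and 11.7 and 15.4 CPM in dcl1 (log2 fold change -1.99 with SE 0.19, adjusted p = 3.36e-06), and SEN4, an enzyme that remodels xyloglucan, stood at 80.5 and 101 CPM in wild type and 28.5 and 42.2 CPM in dcl1 (log2 fold change -1.37 with SE 0.19, adjusted p = 0.000158). ATG8E, a protein of autophagosomes, fell by 1.03 on the log2 scale, and DIN6, which makes asparagine, fell by 1.204 on the log2 scale. The groups did not overlap for any of these 5 genes, and dcl1 replicate 1 was the lowest sample for each. ORE1, which is a known microRNA target, is in this list.

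**Figure D3:**
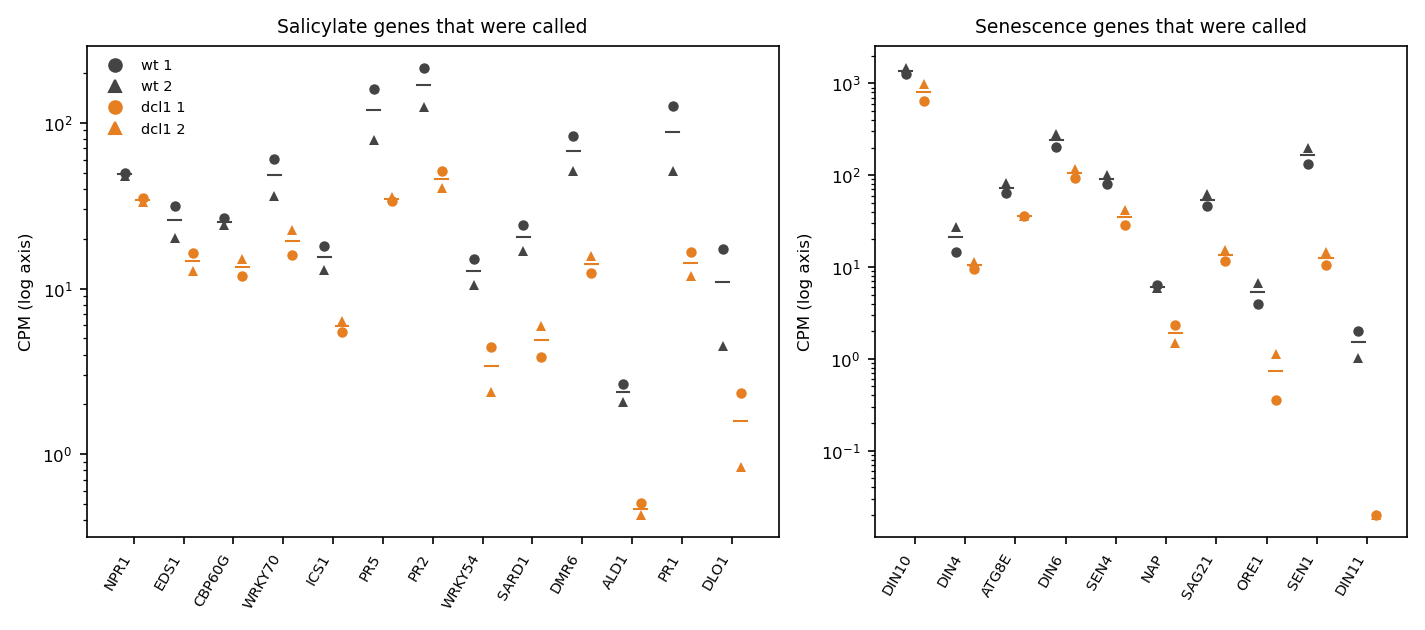
CPM in each RNA sample (log axis) for the 13 salicylate genes (left) and the 10 senescence genes (right) that fell; circles are replicate 1 and triangles replicate 2, grey for wild type and orange for dcl1, bars are group means, and values below 0.02 CPM are drawn at 0.02. PR1 and PR5 are widely spread between the wild-type samples, and SEN1 drops from 131 and 199 to 10.4 and 14.6 CPM.

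Nitrogen and metal genes moved in both directions. Of 29 tested genes of nitrate uptake and assimilation 6 rose (20.7%) and 3 fell (10.3%), against 4.3% and 4.55% of all loci. GDH2 and GDH1, glutamate dehydrogenases that release ammonium when carbon is short, fell by 1.38 and 0.92 on the log2 scale. GDH2 stood at 29.96 and 35.7 CPM in wild type and 12.2 and 13.1 CPM in dcl1 (adjusted p = 7.66e-05), with no overlap. NRT1.1, the nitrate transporter and sensor, fell from 62.7 and 75.5 to 37.5 and 43.4 CPM (log2 fold change -0.77 with SE 0.16, adjusted p = 0.00462). ASN2, an asparagine synthetase, rose from 37.2 and 25.6 to 63.2 and 72.3 CPM (log2 fold change 1.11 with SE 0.18, adjusted p = 0.000702). BT2, a nitrate-responsive scaffold protein, stood at 221 and 131 CPM in wild type and 354 and 552 CPM in dcl1 (log2 fold change 1.36 with SE 0.22, adjusted p = 0.000726) and lost its call with DESeq2 (log2 1.35).

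Of 30 genes of iron and copper homeostasis 6 rose (20%) and 2 fell (6.67%), against 4.3% and 4.55% of all loci. FRO6, a leaf ferric reductase, stood at 303 and 236 CPM in wild type and 573 and 578 CPM in dcl1 (log2 fold change 1.096 with SE 0.15, adjusted p = 0.000141), and its neighbour FRO7, the chloroplast reductase, stood at 172 and 135 CPM in wild type and 338 and 326 CPM in dcl1 (log2 fold change 1.11 with SE 0.15, adjusted p = 0.000143). The pair share 16.2% and 14.8% of their stretches with each other, and neither overlapped between groups. OPT3, a phloem transporter of iron, rose by 1.003 on the log2 scale, from 83.7 and 72.7 to 147 and 167 CPM. FER4, a ferritin that stores iron, fell from 14.8 and 12.6 to 4.55 and 6.11 CPM (log2 fold change -1.36 with SE 0.25, adjusted p = 0.00203), and its call ended in the standard libraries alone (log2 -1.28).

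Gibberellin and brassinosteroid promote growth, and the calls in both lists were falls. Of 21 tested gibberellin genes 7 fell and 0 rose, with a median log2 fold change of -0.60. GASA1, a small gibberellin-regulated peptide, stood at 165 and 282 CPM in wild type and 57.3 and 50.04 CPM in dcl1 (log2 fold change -2.06 with SE 0.20, adjusted p = 4.33e-06), and GASA14 stood at 79.7 and 82.1 CPM in wild type and 47.9 and 44.8 CPM in dcl1 (log2 fold change -0.80 with SE 0.15, adjusted p = 0.00198). RGL1, a DELLA repressor of gibberellin response, fell from 18.8 and 19.4 to 11.1 and 9.33 CPM (log2 fold change -0.90 with SE 0.20, adjusted p = 0.00783). The call of GASA14 ended in the HD libraries alone (log2 -0.56), and that of RGL1 in either adapter alone (log2 -0.96 and log2 -0.91). Of 21 brassinosteroid genes 4 fell and 0 rose, and 18 of the fold changes were negative. BEE3, a transcription factor induced by brassinosteroids, was nearly absent from dcl1 at 0.0308 and 0.226 CPM against 7.497 and 3.62 CPM. CPD, an enzyme of brassinosteroid synthesis, stood at 196 and 232 CPM in wild type and 133 and 141 CPM in dcl1 (log2 fold change -0.64 with SE 0.15, adjusted p = 0.0093), and its call ended in the standard libraries alone (log2 -0.59).

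Of 24 tested ethylene genes 6 fell (25%) and 2 rose (8.33%), against 4.55% and 4.3% of all loci. ERS1, an ethylene receptor, stood at 42.0 and 40.7 CPM in wild type and 22.9 and 17.4 CPM in dcl1 (log2 fold change -1.04 with SE 0.17, adjusted p = 0.00093). EBF2, the F-box protein that removes the response factor EIN3, stood at 79.4 and 118 CPM in wild type and 37.8 and 35.9 CPM in dcl1 (log2 fold change -1.43 with SE 0.18, adjusted p = 6.39e-05). ACO4, an oxidase that makes ethylene, stood at 238 and 271 CPM in wild type and 103 and 129.7 CPM in dcl1 (log2 fold change -1.13 with SE 0.15, adjusted p = 0.000151), while ACS6, the synthase of its substrate, went up from 6.03 and 5.41 to 17.003 and 26.5 CPM (log2 fold change 1.93 with SE 0.24, adjusted p = 5.31e-05). ACO4 and ACS6, both enzymes of ethylene synthesis, thus changed in opposite directions. ERF2, a response factor, fell by 1.61 on the log2 scale. Of 88 auxin-responsive genes 6 rose (6.82%) and 8 fell (9.09%), and of 22 cytokinin genes 3 rose (13.6%) and 2 fell (9.09%). Without dcl1 replicate 2, 5 auxin genes fell, and without dcl1 replicate 1 the cytokinin counts were 5 and 1. In the GH3 family of hormone-conjugating enzymes 3 of 13 fell and 1 rose, with a median of 0.35. GH3.3, which conjugates auxin, went from 5.37 and 6.60 to 1.48 and 0.905 CPM (log2 fold change -2.32 with SE 0.42, adjusted p = 0.00175) and lost its call in the HD libraries alone (log2 -2.03). Without wild-type replicate 1 the number of GH3 genes that rose was 3.

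Calls among jasmonate genes were mostly falls. Of 15 genes of synthesis 4 fell (26.7%) and 1 rose (6.67%). Of 24 of the response 4 fell (16.7%) and 1 rose (4.17%). Over all loci 4.55% fell and 4.3% rose, so the share of response genes that rose was near that of all loci. LOX2, the chloroplast lipoxygenase that starts the pathway, stood at 690.1 and 647 CPM in wild type and 1316 and 1196 CPM in dcl1 (log2 fold change 0.91 with SE 0.13, adjusted p = 0.000279). VSP1, a vegetative storage protein, stood at 15.0 and 13.5 CPM in wild type and 38.3 and 24.9 CPM in dcl1 (log2 fold change 1.15 with SE 0.20, adjusted p = 0.00142), while TAT3, a tyrosine aminotransferase induced by jasmonate, had the lowest log2 fold change among called loci of at least 10 CPM, from 24.1 and 31.0 to 2.23 and 1.15 CPM (log2 fold change -4.00 with SE 0.29, adjusted p = 1.72e-07). AOS, which acts after LOX2, fell by 0.58 on the log2 scale, and its call ended without dcl1 replicate 1 (log2 -0.55). The counts of synthesis genes that fell ran from 1 without dcl1 replicate 2 through 2 without wild-type replicate 2 or dcl1 replicate 1 to 6 without wild-type replicate 1. Those of response genes were 7 without wild-type replicate 1 and 2 without either the other wild-type sample or dcl1 replicate 2. TPS03, a terpene synthase for ocimene, rose from 0.544 and 1.82 to 26.004 and 13.7 CPM (log2 fold change 3.99 with SE 0.42, adjusted p = 7.41e-06).

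Cell wall families held both rises and falls. Xyloglucan endotransglucosylase/hydrolases (XTH) cut and rejoin hemicellulose, and of 21 tested 6 fell (28.6%) and 2 rose. XTH25 stood at 42.8 and 37.9 CPM in wild type and 13.7 and 16.8 CPM in dcl1 (log2 fold change -1.40 with SE 0.17, adjusted p = 5.31e-05), and XTH7 stood at 55.4 and 45.7 CPM in wild type and 17.5 and 21.4 CPM in dcl1 (log2 fold change -1.38 with SE 0.17, adjusted p = 5.31e-05). XTH9 did the reverse, at 87.5 and 75.0 CPM in wild type and 203 and 251 CPM in dcl1 (log2 fold change 1.48 with SE 0.16, adjusted p = 9.18e-06). Expansins loosen the wall, and of 19 tested 3 rose (15.8%) and 1 fell. EXPA5 stood at 17.5 and 17.1 CPM in wild type and 38.2 and 41.0 CPM in dcl1 (log2 fold change 1.199 with SE 0.16, adjusted p = 0.000143) and EXLA1 at 112 and 79.0 CPM in wild type and 161 and 236 CPM in dcl1 (log2 fold change 1.06 with SE 0.19, adjusted p = 0.00176). EXPA16 fell from 20.8 and 26.1 to 11.7 and 7.94 CPM (log2 fold change -1.26 with SE 0.22, adjusted p = 0.00132), and its call ended in the standard libraries alone (log2 -1.11). The number of expansins that fell was 3 without wild-type replicate 2 or dcl1 replicate 1, and 2 without wild-type replicate 1.

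EXT3, an extensin that cross-links the wall, was among the 12 largest falls, from 23.3 and 12.5 to 2.52 and 1.97 CPM (log2 fold change -2.98 with SE 0.31, adjusted p = 6.85e-06), with 24.4% of its stretches in an overlapping antisense locus. Of 43 arabinogalactan proteins, which are glycosylated wall proteins, 7 fell (16.3%) and 2 rose. AGP7 stood at 23.6 and 26.3 CPM in wild type and 6.40 and 5.69 CPM in dcl1 (log2 fold change -2.04 with SE 0.20, adjusted p = 4.27e-06), and AGP4, with 33.2% of its stretches in an antisense locus, fell by 1.75 on the log2 scale. Of 44 pectin methylesterases and their inhibitors 7 fell (15.9%) and 1 rose. AT2G26440 and AT5G62360 carry the name of an invertase and pectin methylesterase inhibitor family in the annotation. The first stood at 41.7 and 31.7 CPM in wild type and 13.2 and 15.5 CPM in dcl1 (log2 fold change -1.36 with SE 0.18, adjusted p = 0.000143), and AT5G62360 stood at 82.4 and 122 CPM in wild type and 55.7 and 38.5 CPM in dcl1 (log2 fold change -1.12 with SE 0.20, adjusted p = 0.00154). Of 18 subtilases, secreted serine proteases, 4 rose (22.2%) and 0 fell. AT5G59130 stood at 13.9 and 6.37 CPM in wild type and 38.4 and 38.8 CPM in dcl1 (log2 fold change 1.94 with SE 0.26, adjusted p = 0.000122), and AT4G21650 stood at 11.1 and 13.8 CPM in wild type and 29.6 and 25.7 CPM in dcl1 (log2 fold change 1.14 with SE 0.19, adjusted p = 0.000825). Neither of them overlapped between groups. The number of pectin genes that rose was 2 without either wild-type replicate and 0 without dcl1 replicate 2.

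Some transporters of water and sugar fell. Of 23 aquaporins 4 fell (17.4%) and 0 rose, and 18 of the fold changes were negative. PIP3, a water channel of the plasma membrane, stood at 459 and 464 CPM in wild type and 180.3 and 275 CPM in dcl1 (log2 fold change -1.02 with SE 0.17, adjusted p = 0.001), and TIP2;2, of the vacuole, stood at 136 and 138 CPM in wild type and 79.7 and 76.0 CPM in dcl1 (log2 fold change -0.82 with SE 0.14, adjusted p = 0.00138). Without dcl1 replicate 1 the number that fell was 2. Of 19 sugar transporters 3 fell and 2 rose. STP14, a galactose importer, stood at 46.9 and 51.3 CPM in wild type and 17.7 and 23.9 CPM in dcl1 (log2 fold change -1.24 with SE 0.17, adjusted p = 0.000188). SUC1, a sucrose importer, went from 88.5 and 96.8 to 52.5 and 56.4 CPM (log2 fold change -0.77 with SE 0.15, adjusted p = 0.00288), and SWEET17, a vacuolar fructose channel, went up from 9.01 and 9.51 to 20.96 and 20.9 CPM (log2 fold change 1.18 with SE 0.19, adjusted p = 0.000855). In the standard libraries alone SUC1 (log2 -0.56) and SWEET17 (log2 0.89) lost their calls. The number of sugar transporters that fell was 5 without dcl1 replicate 2, and the number that rose was 1 there.

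Of 24 beta-glucosidases 5 rose (20.8%) and 2 fell. BGLU44 stood at 153 and 86.5 CPM in wild type and 345 and 317 CPM in dcl1 (log2 fold change 1.47 with SE 0.20, adjusted p = 0.000158), and BGLU18, which frees abscisic acid from its glucose ester, stood at 30.8 and 38.4 CPM in wild type and 11.6 and 10.8 CPM in dcl1 (log2 fold change -1.63 with SE 0.18, adjusted p = 1.62e-05). Without wild-type replicate 1 the number of beta-glucosidases that rose was 9, without wild-type replicate 2 it was 2, and without dcl1 replicate 1 it was 3.

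**Figure D4:**
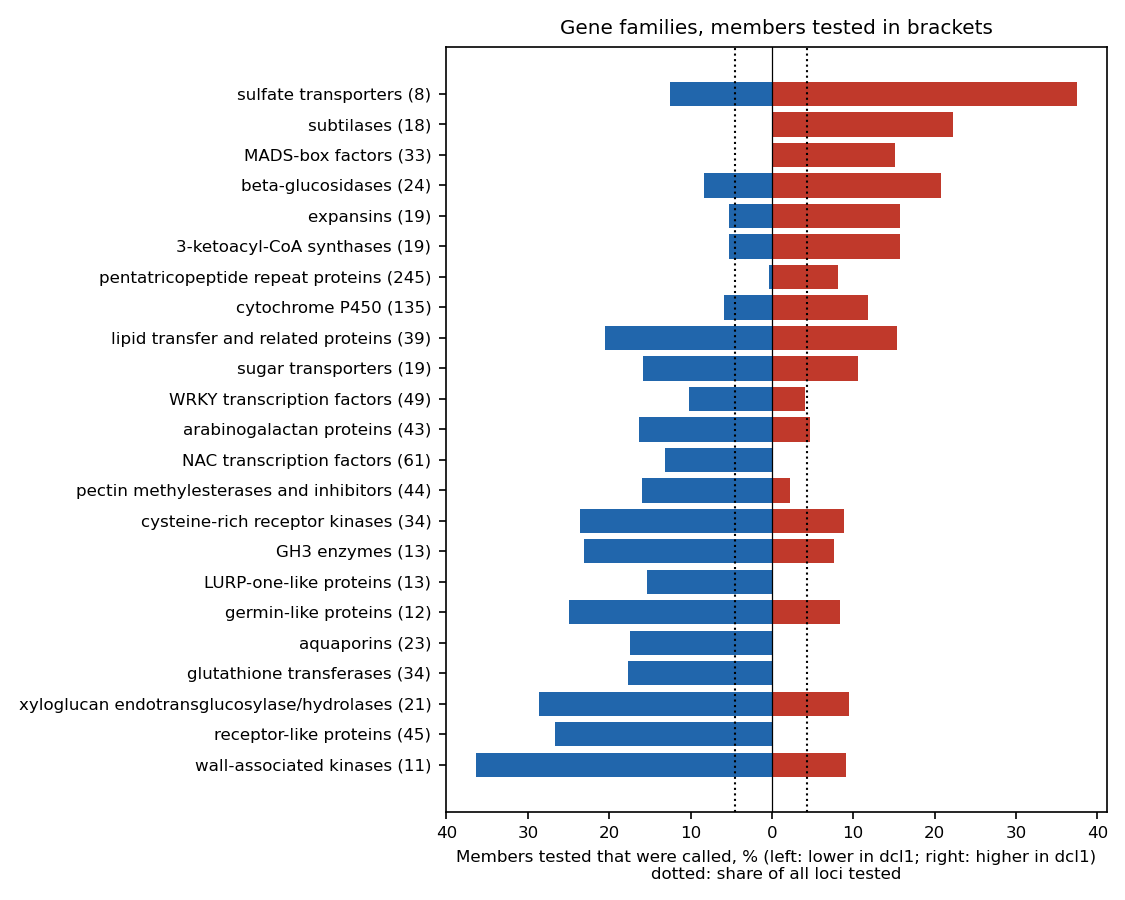
Share of tested members called lower (blue, left) and higher (red, right) in dcl1 for 23 gene families, in percent, with the number tested in brackets; dotted lines mark the shares over all loci tested, 4.55% lower and 4.3% higher. Receptor-like proteins, aquaporins and glutathione transferases have blue bars alone, and subtilases and MADS-box factors red bars alone.

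The number of photosynthesis genes called depended on the method. Of 49 tested genes of the light reactions 2 fell and 1 rose, with 38 negative fold changes and a median of -0.17. LHCA6, an antenna protein that links photosystem I to the NDH complex, stood at 83.0 and 66.6 CPM in wild type and 138 and 142 CPM in dcl1 (log2 fold change 0.90 with SE 0.15, adjusted p = 0.00103). Its groups did not overlap. The 2 that fell were LHCB2.3 (log2 -0.74, with 39.9% of its stretches in an antisense locus) and PSAF (log2 -0.49), and both lost their calls without wild-type replicate 1 (log2 -0.44 and log2 -0.38), where 0 fell (10 fell without wild-type replicate 2, 7 without the expression filter, 9 with DESeq2 and 25 of the 49 with limma voom on the 8 libraries). PSAF lost its call also without dcl1 replicate 2 (log2 -0.42) and in the HD libraries alone (log2 -0.32). Of 24 genes of carbon fixation 3 rose and 0 fell, and 23 of the fold changes were positive. CP12-2, a regulator that binds Calvin cycle enzymes, stood at 204 and 175 CPM in wild type and 375 and 418 CPM in dcl1 (log2 fold change 1.06 with SE 0.14, adjusted p = 0.000147), and TKL1, a transketolase, stood at 1171 and 946 CPM in wild type and 1689 and 1685 CPM in dcl1 (log2 fold change 0.67 with SE 0.14, adjusted p = 0.00457). Without wild-type replicate 1 the number that rose was 7, with DESeq2 it was 5, and with limma voom it was 13 of the 24.

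Of 30 chlorophyll genes 4 rose and 0 fell, among them FC2, a ferrochelatase, from 57.6 and 51.3 to 90.9 and 84.9 CPM (log2 fold change 0.69 with SE 0.15, adjusted p = 0.00661). That number was 8 without wild-type replicate 1, 1 without replicate 2 and 9 with limma voom.

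Families that serve organelle and cytosolic gene expression had small, mostly positive fold changes. Of 245 pentatricopeptide repeat proteins, which bind and edit organelle RNAs, 20 rose and 1 fell, 189 fold changes were positive, and the median was 0.40. The number that rose was 11 without dcl1 replicate 2. Of 289 loci annotated as ribosomal proteins 12 rose and 1 fell, with 257 positive fold changes and a median of 0.28. The share that rose, 4.15%, was near the 4.3% of all loci in this test, but the number depended on the method, with 27 rises by DESeq2, 31 without the expression filter and 56 by limma voom. Between 6 (without dcl1 replicate 2) and 22 (without wild-type replicate 1) rose when 1 sample was left out, with 8 without wild-type replicate 2. Of 43 histone genes 4 fell and 0 rose, with a median of -0.29, and 2 fell without dcl1 replicate 2. Of 16 genes in common use as references for qPCR, UBQ10, a polyubiquitin, fell from 2378 and 2648 to 1239 and 1397 CPM (log2 fold change -0.93 with SE 0.13, adjusted p = 0.000215), and the other 15 did not pass.

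Several MADS-box genes rose. Of 33 tested MADS-box factors 5 rose (15.2%) and 0 fell, of which AGL16 is a known microRNA target. AGL42, a promoter of flowering, stood at 0.709 and 0.678 CPM in wild type and 9.42 and 9.87 CPM in dcl1 (log2 fold change 3.80 with SE 0.36, adjusted p = 2.83e-06), and FUL, a MADS-box factor of flowering and fruit, stood at 2.29 and 2.26 CPM in wild type and 7.03 and 8.33 CPM in dcl1 (log2 fold change 1.75 with SE 0.33, adjusted p = 0.00246). FLC, a repressor of flowering, was near 0 in wild type at 0.0473 and 0.484 CPM and stood at 5.12 and 5.63 CPM in dcl1, and 88% of its stretches lie in an overlapping antisense locus. Its fitted log2 fold change of 4.19, which depends on the prior count, was log2 6.74 without wild-type replicate 2. The flowering list, which overlaps with the MADS-box family, had 3 rises and 2 falls among 18 tested. TEM2, a repressor of the florigen gene, went down from 53.2 and 51.2 to 10.99 and 21.5 CPM (log2 fold change -1.69 with SE 0.23, adjusted p = 0.000145). In the HD libraries alone FLC lost its call (log2 3.52), and in the standard libraries alone FUL did (log2 1.60).

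Of 27 clock genes 5 rose and 1 fell (0 fell without wild-type replicate 1). ELF4, of the evening complex, stood at 23.9 and 29.95 CPM in wild type and 70.2 and 59.7 CPM in dcl1 (log2 fold change 1.27 with SE 0.17, adjusted p = 0.000103), and COL9, a CONSTANS-like protein, stood at 48.8 and 76.6 CPM in wild type and 117 and 124 CPM in dcl1 (log2 fold change 0.94 with SE 0.18, adjusted p = 0.0031). The labels do not give the hour of harvest, and a difference in time of day between the groups was not tested.

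Of 36 genes of cold and abscisic acid response 4 rose (11.1%) and 4 fell (11.1%), against 4.3% and 4.55% of all loci. COR15B, a chloroplast cold-protective protein, stood at 115 and 103 CPM in wild type and 322 and 302 CPM in dcl1 (log2 fold change 1.52 with SE 0.14, adjusted p = 2.85e-06), with 28.2% of its stretches in a locus on the other strand whose log2 fold change was 0.04, and P5CS1, the enzyme that limits proline synthesis, stood at 44.5 and 32.8 CPM in wild type and 116 and 108 CPM in dcl1 (log2 fold change 1.54 with SE 0.17, adjusted p = 1.24e-05). RD26, a NAC factor of this response, fell from 21.9 and 31.9 to 9.68 and 14.9 CPM (log2 fold change -1.14 with SE 0.23, adjusted p = 0.00394), and its call ended in the HD libraries alone (log2 -0.95).

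Heat shock proteins (38 tested, 3 higher and 1 lower), phosphate starvation genes (18 tested, 1 higher), photorespiration genes (16 tested, 1 higher), flavonoid genes (13 tested, 1 lower) and genes of the cell cycle and meristem (27 tested, 1 higher) had few calls, and between 0 and 4 members of each rose when 1 RNA sample was left out. Cell-surface immunity genes had 1 rise and 4 falls among 25 tested, and terpene synthases 1 rise and 1 fall among 7. Of 61 NAC factors 8 fell and 0 rose (5 fell without wild-type replicate 2), and of 49 WRKY factors 5 fell and 2 rose. Without wild-type replicate 2, 2 WRKY factors fell, and without dcl1 replicate 1, 4 rose and 3 fell. Without wild-type replicate 1 or dcl1 replicate 2, 1 WRKY factor rose. Of 135 cytochrome P450 genes 16 rose and 8 fell, and without wild-type replicate 2 the counts were 7 and 14 (9 rose without dcl1 replicate 2, and 14 fell without the expression filter). In the small RNA machinery, 0 of 23 tested genes were called by edgeR, while 4 had an unadjusted p under 0.05 (3 of them higher), DESeq2 called 1 higher and limma voom 2.

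In the lists and families for which a direction is given as 0, between 0 and 3 members had an unadjusted p under 0.05 in that direction by edgeR. With DESeq2 that count became 1 for MADS-box falls, aquaporin rises, chlorophyll falls and flavonoid rises. With limma voom on the 8 libraries it became 2 for rises of glutathione transferases and qPCR references, and 1 for salicylate rises and for falls of chlorophyll, LTP1 to LTP6 and photorespiration genes. Leaving out 1 RNA sample gave 1 call for salicylate and qPCR reference rises (without wild-type replicate 1), MADS-box falls (without dcl1 replicate 1), subtilase falls (without dcl1 replicate 2), chlorophyll falls (without either wild-type sample) and flavonoid rises (without wild-type replicate 1 or dcl1 replicate 2). In the small RNA machinery 2 genes rose without wild-type replicate 1 and 1 without wild-type replicate 2 or dcl1 replicate 1. Without the expression filter the count was 1 for MADS-box falls, aquaporin rises and chlorophyll falls, and 2 for small RNA rises.

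Limma voom, which called more loci in all and took the 2 libraries of an RNA sample as almost independent, also gave larger counts for other lists. With it 9 clock, 6 cytokinin, 8 sulfate assimilation and 5 photorespiration genes rose, and 7 jasmonate synthesis, 7 histone and 5 sugar transporter genes fell. Without the expression filter 6 heat shock and 8 beta-glucosidase genes rose.

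Several of the largest changes belong to no list. AT5G50915 (chromosome 5, 20710103 to 20712473), a basic helix-loop-helix protein by its annotation, stood at 10.6 and 6.34 CPM in wild type and 109 and 124 CPM in dcl1 (log2 fold change 3.79 with SE 0.22, adjusted p = 2.29e-08). AT4G19430 (chromosome 4, 10598371 to 10599182), annotated as an uncharacterized protein, stood at 0.828 and 1.005 CPM in wild type and 28.1 and 31.2 CPM in dcl1, which is 31.8-fold higher (log2 fold change 4.99 with SE 0.24, adjusted p = 4.12e-09). NFYA2, a known microRNA target, is the one such target among the 12 largest rises. On the lower side, AT5G12050, annotated as a rho GTPase-activating protein, stood at 29.5 and 32.8 CPM in wild type and 3.15 and 4.54 CPM in dcl1 (log2 fold change -3.02 with SE 0.22, adjusted p = 1.99e-07). AT1G15670, with kelch repeats, stood at 28.3 and 34.6 CPM in wild type and 3.92 and 5.78 CPM in dcl1 (log2 fold change -2.70 with SE 0.22, adjusted p = 6.55e-07), and AT4G36850, a PQ-loop membrane protein, stood at 21.5 and 15.6 CPM in wild type and 2.55 and 1.62 CPM in dcl1 (log2 fold change -3.14 with SE 0.29, adjusted p = 1.9e-06). A lack of overlap between the groups was a condition for naming these genes, so their separation is no separate result. The calls held with either adapter alone, whose libraries are parts of the same summed counts.

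Few genotype differences were called as depending on adapter kind, and a difference that was not called may still exist with 2 RNA samples a group. A fit to the 8 libraries with the RNA sample as a term called a genotype by adapter interaction at 36 of 19521 loci (0.184%). Of the genes of largest change, SDI1 had a log2 fold change of 4.06 with HD and 6.37 with standard adapters, and AT4G19430 had 5.91 and 4.35. SEN1 was closer, at -3.70 and -3.87, as was BAM5 at 3.48 and 3.61. With 1 adapter kind fewer members were called in most lists. Among the lists above, 8 starch genes rose with HD and 9 with standard adapters, 3 wax genes rose with each, and 7 senescence genes fell with each. Receptor-like proteins had 5 and 9 falls, cysteine-rich kinases 4 and 5, indole glucosinolate genes 3 and 4, and gibberellin genes 2 and 4. Of the pentatricopeptide repeat genes 5 and 7 rose, and of the ribosomal protein genes 2 and 9.

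**Figure D5:**
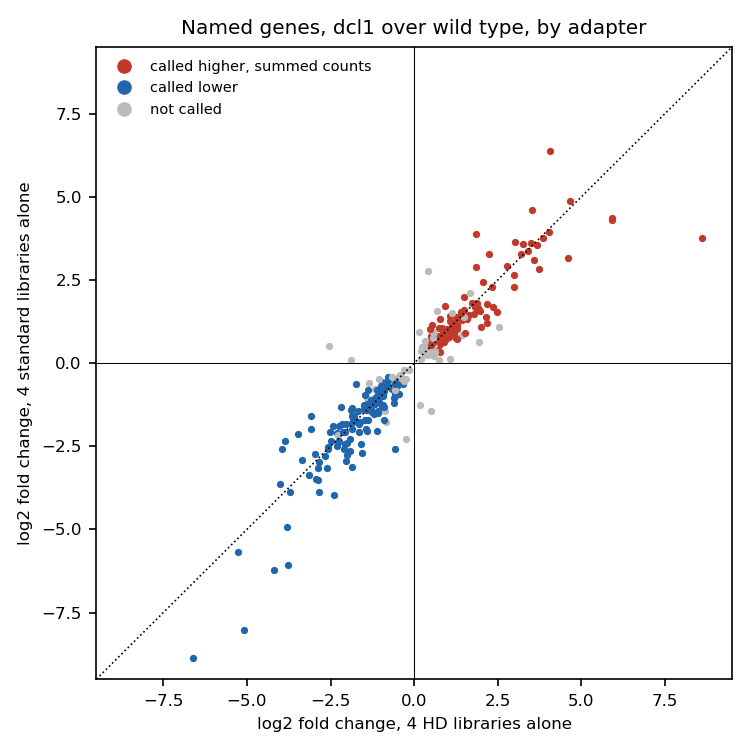
Log2 fold change (dcl1 over wild type) in the 4 HD libraries alone (x axis) and the 4 standard libraries alone (y axis) for the 307 named genes that could be fitted with both; points are genes, coloured by their call from the summed counts, and the dotted line marks equal values. Both kinds of library were made from the same 4 RNA samples, and the calls came from their sums. The position of called genes in the lower left and upper right quadrants is therefore no independent check.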

How the data were processed

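The deposited values were raw read counts per locus for each of 8 leaf libraries, named by the authors' locus identifiers. The submitters' processing notes name the genome build TAIR10; aligner, counter and strand setting were not given in the sources used here. Of 22546 loci, 22444 matched the TAIR10.1 annotation, which gave names, positions and products. The HD and standard counts of an RNA sample were summed. Loci passing edgeR's expression filter (19711) were scaled by TMM and tested with the quasi-likelihood F test (R 4.3.3, edgeR 4.0.16, limma 3.58.1), with Benjamini-Hochberg adjustment over all loci tested and a threshold of 0.05; the SE is the log2 fold change divided by the root of F. CPM were computed on TMM-scaled library sizes. Each adapter kind was also fitted alone. DESeq2 1.42.0 and limma voom were alternatives. The fitting steps were tested on simulated data. The members and gene lists were chosen with earlier results of these data known. Named genes were DCL1 and the 12 largest rises and falls among called loci. These loci had at least 10 CPM on average and no overlap between the groups. Per list the 6, or per family the 5, with the smallest p were named too. Of 85 families searched, 83 had at least 8 members tested. Among these, 19 were described because their share called in 1 direction was at least 3 times that of all loci. A high share was thus their condition of entry. The pentatricopeptide repeat, cytochrome P450, NAC and WRKY families missed this rule and were added. Motifs were searched in the 250 bases before each annotated start, read from the TAIR10.1 genome. Leaving out ribosomal RNA loci was among the alternatives.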

Additional observations from a re-analysis of the deposited data

Results flagged for a closer look

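AT3G22142, annotated with a lipid-transfer type domain (chromosome 3, 7803492 to 7808046), differed between the adapter kinds in its genotype difference. Its log2 fold change was -0.58 in the HD libraries and -2.60 in the standard libraries, a difference of 2.03 (interaction term in edgeR, adjusted p = 3.56e-08), and it was the 1 named gene so called among 36 of 19521 loci. Its summed levels were 45.6 and 47.9 CPM in wild type and 17.1 and 12.6 CPM in dcl1. Of its 50-base stretches 98.1% also occur in AT3G22125 on the other strand, whose part in the difference was not tested.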

How the results depend on the processing

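With 2 RNA samples a group, single samples bore on many calls: leaving out 1 RNA sample gave between 1448 and 1954 called loci, 636 to 1071 higher and 812 to 883 lower, and 779 of the 1744 calls held without each sample in turn. HD libraries alone gave 747 calls (356 higher, 391 lower), standard libraries alone 809 (359 higher, 450 lower), and limma voom on the 8 libraries 2609 (1342 higher, 1267 lower); the cause was not tested, although each adapter alone has fewer counts by construction. Requiring a change of 1 or more on the log2 scale left 817 (336 higher, 481 lower). Size factors of the RLE kind gave 1689, DESeq2 2057, no filter 2379 and leaving out ribosomal RNA loci 1681, all within 1.5 times. The interaction with adapter kind was called at 36 loci, and at 5 with 1 mean per group, 34 with RLE and 35 without the filter. Of 315 named genes none reversed under these alternatives where it was called in the main fit or in the alternative. Genes called in neither could change sign. TPS14, for example, had log2 -1.58 in the main fit and log2 0.50 in the standard libraries alone, and CDKB2;1 log2 -0.74 and log2 0.09.

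With the replicate number as a block 2173 loci were called, 1086 higher and 1087 lower, and no named gene lost its call. Across loci, the deviations of samples of the same number had a correlation of 0.0093. That single value cannot tell whether same-numbered samples shared a day or a batch, which the labels do not give.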
